A study of Mus musculus with 20 samples.

Results

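The genes described here carry glucose from the cell surface to pyruvate and lactate: 36 genes for glucose transporters, the enzymes of glycolysis with their isoforms, lactate dehydrogenases, lactate transporters, and the kinases, subunits and carriers that control pyruvate entry into mitochondria. They were taken by gene symbol from a table of 27179 genes, where all 36 were present, and the 34 that averaged 10 or more normalized reads over all 20 libraries were tested among 13057 genes past the same limit. The untested members were Slc2a4 and Aldoc. The RNA came from PDGFRb+ adipocyte progenitor cells, or APCs, taken from inguinal fat, a white depot under the skin of the mouse groin, and sorted by flow cytometry into DPP4+ and DPP4- cells. All mice were male C57BL/6, with no other allele or agent named and no age given in the labels used here, and lived at 22 °C (room temperature) or spent 24 h at 6 °C. There were 5 libraries in each of the 4 groups. The labels do not say whether the 5 libraries of a group came from separate mice or pools, so the p-values measure the spread between these libraries.

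Glycolysis splits glucose into pyruvate in the cytosol and yields a small amount of ATP and NADH. Pyruvate either enters mitochondria through the pyruvate carrier and pyruvate dehydrogenase (PDH), or is reduced to lactate by lactate dehydrogenase and leaves the cell through monocarboxylate transporters. Most steps have isoforms that differ in tissue and in control, and several of them are textbook targets of the hypoxia-inducible factors. In cold, white fat takes up more glucose, and DPP4+ APCs are known as an early progenitor population of this tissue.

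The sort was visible in the data. Dpp4 averaged 8546 ± 1158 and 10035 ± 2091 normalized reads in DPP4+ cells at 22 and 6 °C (SD, n = 5 here and below) against 67.9 ± 21.6 and 61.3 ± 42.4 in DPP4- cells. The stromal genes Pdgfra and Pdgfrb were present in all 4 groups, although in DPP4+ cells they fell with cold, Pdgfrb from 2942 ± 226 to 1505 ± 80.7. The 8 skeletal muscle markers summed to 45.9 to 97.9 normalized reads per library and the 6 erythroid markers found to 3.29 to 30.2. The 8 pericyte and smooth muscle markers summed to 6087 to 7719 in DPP4+ cells at 22 °C and to 2712 to 4429 in cold (3899 to 5252 and 4876 to 6438 in DPP4- cells). In DPP4+ cells most of that sum was Acta2, whose means of 6046 and 3083 did not pass the test (limma adjusted p = 0.0649). There Cspg4, Notch3, Myh11 and Cnn1 fell with cold, while Kcnj8 (from 18.5 to 48.0) and Abcc9 (from 222 to 342) rose. Between the populations at 22 °C these markers went both ways. Acta2 (6046 against 45.6) and Cnn1 (211 against 2.25) were higher in DPP4+ than in DPP4- cells. Abcc9 (222 against 2558), Notch3 (239 against 1594), Myh11 (77.0 against 152), Kcnj8 (18.5 against 30.3) and Rgs5 (4.95 against 22.3) were lower, and Cspg4 did not pass the test. The 8 endothelial markers summed to 2590 to 4286 in DPP4+ and 888 to 1383 in DPP4- cells, mostly Tek (2811 against 888 at 22 °C), while Pecam1 (23.7 against 73.6), Cdh5 (20.6 against 69.8) and Cldn5 (11.6 against 44.3) were lower in DPP4+ cells. With cold in DPP4+ cells Kdr rose from 30.3 to 251 and Egfl7 from 19.9 to 34.0, and the other tested endothelial markers did not pass. The part of these markers in the results below was not tested. In bulk RNA, fewer cells of a type and less RNA per cell cannot be told apart. Libraries held 8.49 to 18.8 M reads (M for 1e+06). The deposited values summed to 15.4 to 17.3 M in each DPP4- library but only 10.2 to 12.1 M in each DPP4+ library, and setting the totals equal moved the median log2 difference of all tested genes between the populations from 0.03 to 0.64 at 22 °C and from 0.03 to 0.50 at 6 °C. Directions between the populations that this scaling turns are named with each result.

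In cold, 1 DPP4+ library, replicate 5, lay closer to the 22 °C group than the other 4. It was the cold library nearest to the 22 °C mean for 19 of the 22 members called in DPP4+ cells, and for 49.8% of the 6023 genes called there, which were 46.1% of all tested genes. Without it, each of those 22 members kept its direction and call, and 17 members rose and 7 fell, Pfkl and Tpi1 being added. Values with and without that library are given for the leading members.

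How the cold changed these genes in each population was the first comparison. In DPP4+ cells, 24 h at 6 °C was accompanied by higher RNA for lactate transporters, lactate dehydrogenase A, the basal glucose transporter and most enzymes from aldolase to pyruvate kinase, while the PDH kinase Pdk2 and the phosphofructokinase Pfkm were lower. The lactate exporter Slc16a3 was 8.20-fold higher, Slc16a1 2.56-fold, Gapdh 2.06-fold, Slc2a1 1.77-fold, Pkm 1.68-fold and Ldha 1.6-fold (ratios of group means). Of the 34 tested members, 15 rose and 7 fell at an adjusted p under 0.05 (limma on log2(value + 1), Benjamini-Hochberg over all tested genes), where 23.5% of all tested genes rose and 22.6% fell. The 5 cold libraries did not overlap the 5 at 22 °C for 14 of the members that rose and 3 that fell, against 19.4% and 19.0% of all tested genes. The median log2 difference of the members was 0.11, and that of all tested genes 0.01. In DPP4- cells 1 member, Pfkfb3, rose and 0 fell, where 1.98% of all tested genes rose and 3.23% fell, and 0 members had groups that did not overlap, against 1.65% of all tested genes upward and 3.22% downward. By unadjusted p under 0.05 the counts there were 2 and 0, and edgeR and DESeq2 also called 1 and 0. The log2 differences of all 34 in DPP4- cells ran from -0.28 to 0.40. The difference of the cold effects, DPP4+ minus DPP4-, passed the test upward for 12 members and downward for 5, where 16.8% and 16.4% of all tested genes did so. With totals set equal these counts were 8 and 7, where 8.64% and 23.4% of all tested genes passed.

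**Figure D1:**
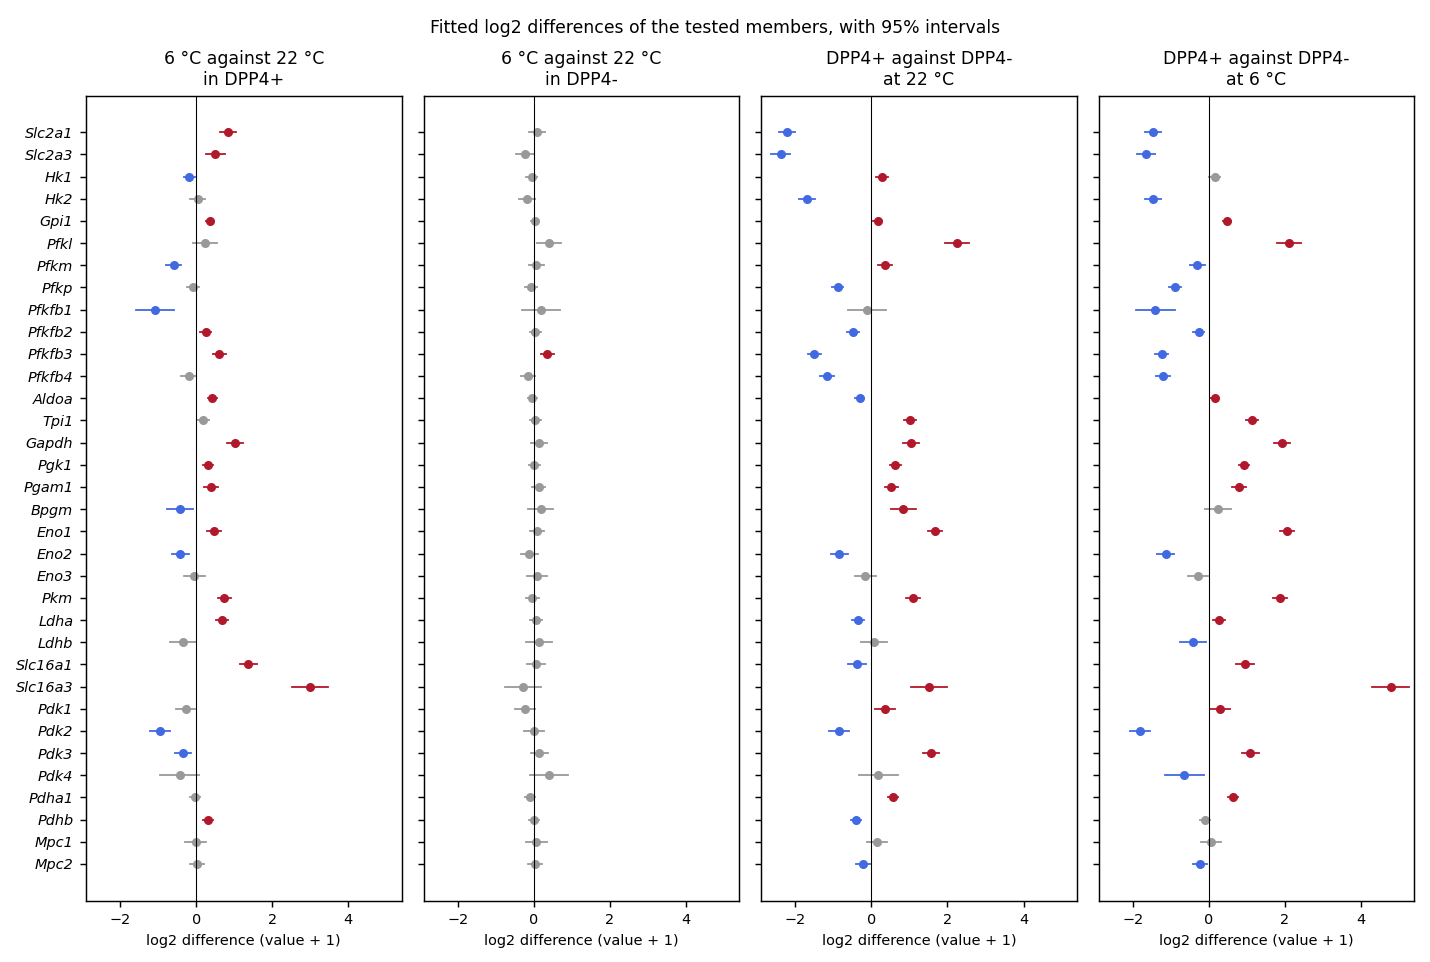
Fitted log2 differences (x axis, on the log2(value + 1) scale) of the 34 tested members (y axis, in pathway order) for cold in DPP4+ cells, cold in DPP4- cells, and DPP4+ against DPP4- cells at 22 °C and at 6 °C; points are estimates, lines 95% intervals, red and blue an adjusted p under 0.05 upward and downward, grey the rest. Slc16a3 lies farthest right for cold in DPP4+ cells at 2.99, and only Pfkfb3 is coloured for cold in DPP4- cells. For DPP4+ against DPP4- cells at 22 °C, Pfkfb2, Aldoa, Eno3, Ldha, Slc16a1, Pdhb and Mpc2 turn upward with totals set equal, and Aldoa and Ldha also with quantile normalization. At 6 °C Pfkm, Pfkfb2, Ldhb, Pdhb and Mpc2 turn upward with totals set equal.

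At the first step, glucose uptake, both tested transporters were lower in DPP4+ than in DPP4- cells and rose with cold in DPP4+ cells. Slc2a1 (GLUT1), the basal glucose transporter of most cells, read 434, 521, 651, 521 and 496 normalized reads in the DPP4+ libraries at 22 °C and 997, 922, 946, 1038 and 737 at 6 °C. In DPP4- libraries it read 2115, 2695, 2646, 2472 and 2216 at 22 °C and 2460.1, 2254, 2718, 2959 and 2537 at 6 °C. Every cold DPP4+ library lay above every one at 22 °C, replicate 5 lowest among them, and all DPP4- libraries lay above both. The rise in DPP4+ cells (log2 difference 0.82, SE 0.10, limma adjusted p = 6.31e-07) was 1.86-fold without replicate 5, and it differed from that in DPP4- cells (difference 0.73, SE 0.14, limma adjusted p = 0.000411). DPP4+ cells held 4.63-fold less Slc2a1 than DPP4- cells at 22 °C and 2.79-fold less at 6 °C. Slc2a3 (GLUT3), a high-affinity transporter known from neurons, averaged 32.3 ± 4.78 and 45.9 ± 1.56 in DPP4+ cells at 22 and 6 °C, and 173 ± 13.2 and 148 ± 24.1 in DPP4- cells. Its groups were apart in DPP4+ cells (log2 difference 0.50, SE 0.12, limma adjusted p = 0.00108). Slc2a4 (GLUT4), the insulin-responsive transporter of fat and muscle cells, was too low to test: it read 19.9, 13.8, 19.5, 16.9 and 14.5 in DPP4+ cells at 22 °C, 2.59, 3.29, 1.94, 1.71 and 2.99 in cold, 2.70, 7.51, 7.56, 4.61 and 3.86 in DPP4- cells at 22 °C and 9.38, 8.18, 18.9, 13.2 and 13.2 in cold. The 5 cold DPP4+ libraries lay below the 5 at 22 °C, and in DPP4- cells all cold libraries lay above those at 22 °C. The 8 mature adipocyte markers summed to 1340 to 1805 in DPP4+ cells at 22 °C and 637 to 1170 in cold. In DPP4- cells they summed to 2092 to 3969 and 3395 to 5231, sums that overlap and are mostly Plin4 (2998 and 3831). At 22 °C Plin4 was lower in DPP4+ cells (214 against 2998), and Cidec did not pass the test between the populations. Adipoq (332 against 20.1), Plin1 (342 against 35.8), Cfd (648 against 35.9) and Retn (26.3 against 9.01) were higher there in DPP4+ cells. In DPP4+ cells no tested marker passed for cold (smallest limma adjusted p = 0.0518, Cfd), and in DPP4- cells Plin1 (0.0423) and Retn (0.0372) passed upward. Their part in the Slc2a4 values was not tested.

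Hexokinases trap glucose in the cell as glucose 6-phosphate. Hk2, the isoform that insulin and hypoxia are known to induce, read 7271, 7937, 9647, 8942 and 10051 in DPP4+ libraries at 22 °C and 8112, 9984, 8428, 8774 and 9499 at 6 °C. In DPP4- libraries it read 31920, 26336, 24691, 29556 and 28554 at 22 °C and 28127, 27050, 22756, 26237 and 20627 at 6 °C. The DPP4- libraries all lay above the DPP4+ libraries, and the temperatures overlapped in both populations. Hk2 was 3.22-fold lower in DPP4+ cells at 22 °C (log2 difference -1.69, SE 0.10, limma adjusted p = 2.34e-13) and 2.79-fold lower at 6 °C, and its cold effect did not pass the test in DPP4+ cells (95% interval -0.17 to 0.24 on the log2 scale) or in DPP4- cells (-0.39 to 0.03). It alone took 0.0791% of all reads in DPP4+ cells and 0.167% in DPP4- cells at 22 °C. Hk1, the isoform of most tissues, averaged 954 ± 64.5 and 841 ± 42.3 in DPP4+ and 787 ± 66.7 and 758 ± 78.6 in DPP4- cells at 22 and 6 °C. Its fall in DPP4+ cells (log2 difference -0.18, SE 0.071, limma adjusted p = 0.0395) had overlapping groups and was lost without any 1 of 6 libraries, each of replicates 1 to 3 of the DPP4+ groups at 22 and at 6 °C (adjusted p from 0.0654 to 0.111).

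The DNA before the transcription starts of 2 genes of these steps is shown because one rose with cold in DPP4+ cells while the other kept a high level in DPP4- cells at both temperatures. Both come from RefSeq on GRCm38.p6 and run 5′ to 3′ on the strand of the gene. Capitals mark ACGTG or GCGTG on either strand (CACGT or CACGC when read on the other), the core that hypoxia-inducible factors bind. The Slc2a1 window (chr4:119108495-119108710, plus strand) ends 34 bases before the RefSeq start, the rest being exon in GENCODE vM21, and the Hk2 window (chr6:82774455-82774704, minus strand) covers the 250 bases before its start.
Slc2a1: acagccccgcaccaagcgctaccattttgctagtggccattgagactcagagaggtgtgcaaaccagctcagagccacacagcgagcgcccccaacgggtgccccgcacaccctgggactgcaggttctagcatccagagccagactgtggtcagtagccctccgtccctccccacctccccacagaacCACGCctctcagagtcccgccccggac
Hk2: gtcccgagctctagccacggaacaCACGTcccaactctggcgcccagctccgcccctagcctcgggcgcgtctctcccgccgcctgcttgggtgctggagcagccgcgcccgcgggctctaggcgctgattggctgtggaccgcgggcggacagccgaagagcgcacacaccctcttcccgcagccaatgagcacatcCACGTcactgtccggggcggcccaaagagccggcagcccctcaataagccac
The Slc2a1 window holds 1 core match and the longer Hk2 window 2. Over the 250 bases before the start Slc2a1 also has 2, the second lying across the end of the printed window. Over 250 bases before the start, 26 of the 34 members with a RefSeq promoter had at least 1 match (76.5%), as had 57.1% of the tested genes with one and 38.6% of all 27025 promoters searched. A match is a string of letters and not a shown binding site.

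**Figure D2:**
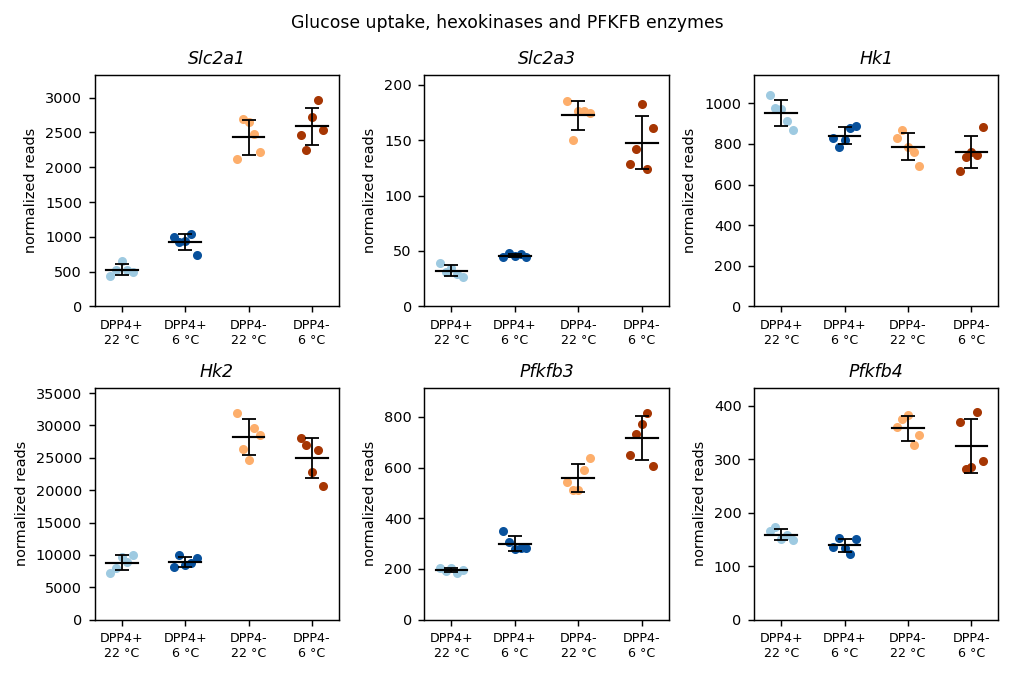
Normalized reads (y axis, from 0) of Slc2a1, Slc2a3, Hk1, Hk2, Pfkfb3 and Pfkfb4 in each library, by group (x axis: DPP4+ and DPP4- cells at 22 and 6 °C); points are the 5 libraries, bars the mean and SD. Slc2a1 rises from 524 to 928 in DPP4+ cells while Hk2 stays near 8769.5, and all 6 genes except Hk1 are higher in DPP4- cells.

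Gpi1, which converts glucose 6-phosphate to fructose 6-phosphate, rose in DPP4+ cells from 2024 ± 36.5 to 2587 ± 129 with groups apart (log2 difference 0.35, SE 0.052, limma adjusted p = 5.77e-06), against 1811 ± 81.3 and 1855 ± 110.1 in DPP4- cells. The next enzyme, phosphofructokinase, commits sugar to glycolysis and has a liver (Pfkl), a muscle (Pfkm) and a platelet (Pfkp) isoform. The populations differed in isoform. Pfkl read 674, 590.1, 529.7, 592 and 534 in DPP4+ libraries at 22 °C and 876, 688, 753, 729 and 459 at 6 °C. In DPP4- libraries it read 108, 116, 145, 119.7 and 122 at 22 °C and 113, 142, 178, 183 and 200 at 6 °C. All DPP4+ libraries lay above all DPP4- libraries, 4.78-fold by means at 22 °C (log2 difference 2.25, SE 0.15, limma adjusted p = 1.53e-11) and 4.30-fold at 6 °C. In cold, replicate 5 of DPP4+ cells lay below every 22 °C library. The Pfkl cold effect did not pass the test in DPP4+ cells with that library (log2 difference 0.24, 95% interval -0.08 to 0.55, limma adjusted p = 0.208) and passed without it (0.38, adjusted p = 0.0181). Pfkp went the other way between the populations, 1319 ± 119 and 1247 ± 168 in DPP4+ against 2439.7 ± 79.6 and 2317 ± 115 in DPP4- cells, and did not pass the test for cold in either. Pfkm was the isoform that fell with cold in DPP4+ cells. It read 359, 312, 328, 304 and 281 at 22 °C and 187, 201, 201, 217 and 242 at 6 °C, with groups apart (log2 difference -0.59, SE 0.091, limma adjusted p = 1.02e-05). In DPP4- cells it averaged 247 ± 20.8 and 259.6 ± 32.8, and the cold effects of the populations differed by -0.66 (SE 0.13, limma adjusted p = 0.000342).

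The PFKFB enzymes make and break fructose 2,6-bisphosphate, the strongest activator of phosphofructokinase, and Pfkfb3 is the form that mostly makes it. Pfkfb3 was the 1 member that rose with cold in both populations. It read 205, 194, 204, 185 and 196 in DPP4+ cells at 22 °C and 349, 306, 278, 283 and 283 in cold. In DPP4- cells it read 543, 510.4, 513, 589.5 and 637 at 22 °C and 649, 732, 773, 815 and 607 at 6 °C. The DPP4+ groups were apart; in DPP4- cells 1 cold library, replicate 5, lay within the 22 °C range. The rise was 1.53-fold in DPP4+ (log2 difference 0.60, SE 0.083, limma adjusted p = 2.11e-06) and 1.28-fold in DPP4- cells (log2 difference 0.35, SE 0.083, limma adjusted p = 0.0134), and the difference between the rises did not pass the test (0.25, 95% interval 0.01 to 0.49, limma adjusted p = 0.105). At both temperatures DPP4+ cells held less of it, 197 against 558 at 22 °C, and less Pfkfb4, 159 ± 10.1 against 358 ± 23.3. Pfkfb2 rose from 258 ± 10.7 to 306 ± 17.7 in DPP4+ cells (log2 difference 0.24, SE 0.075, limma adjusted p = 0.00988), a call that was lost with totals set equal (0.20, adjusted p = 0.0745). Pfkfb1, the liver form, fell there from 21.2 ± 4.59 to 9.52 ± 2.96 with groups apart (limma adjusted p = 0.000711), at values near the limit for testing.

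Aldoa, the main aldolase, read 4001, 3829, 3768, 3917 and 3930.4 in DPP4+ cells at 22 °C and 5349.9, 5126, 5179.9, 5561 and 4819 in cold. In DPP4- cells it averaged 4812 ± 102 and 4706 ± 358. The DPP4+ groups were apart (log2 difference 0.42, SE 0.057, limma adjusted p = 1.94e-06), and the cold effects of the populations differed (0.46, limma adjusted p = 0.000127). At 22 °C Aldoa was 1.24-fold lower in DPP4+ cells, a direction that turned with totals set equal (log2 difference 0.31) and with quantile normalization (0.19). Aldoc, the brain aldolase, averaged 1.70 to 2.56 and was not tested. Tpi1, which interconverts the triose phosphates that aldolase makes, was 2.01-fold higher in DPP4+ cells at 22 °C (1303 ± 98.2 against 648 ± 57.0), and its cold effect there did not pass the test (log2 difference 0.18, 95% interval 0.02 to 0.33, limma adjusted p = 0.0582) but did without replicate 5 of the cold libraries (0.24, adjusted p = 0.00918), with edgeR (0.0432) and with DESeq2 (0.0491).

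Lower glycolysis takes triose phosphate to pyruvate and is where ATP and NADH are gained. Of its 8 tested genes, 5 rose and 2 fell with cold in DPP4+ cells, where 23.5% and 22.6% of all tested genes did. In DPP4- cells 0 of the 8 passed the test, against 1.98% of all tested genes upward and 3.23% downward. At 22 °C DPP4+ cells held more of 6 of the 8, where they held more of 38.7% of all tested genes. Pkm, the pyruvate kinase of most tissues, read 5449, 5159, 4583, 5093 and 4748 in DPP4+ libraries at 22 °C and 9814, 8360, 8458, 9089.9 and 6389 at 6 °C. In DPP4- libraries it read 2654, 2396, 2277, 2166 and 2258 at 22 °C and 2112, 2316, 2315, 2343 and 2351 at 6 °C. The DPP4+ groups were apart, replicate 5 lying lowest of the cold libraries, and both lay above all DPP4- libraries. The rise (log2 difference 0.74, SE 0.085, limma adjusted p = 1.55e-07) was 1.78-fold without that library, and the difference from DPP4- cells was 0.78 (SE 0.12, limma adjusted p = 2.43e-05). Gapdh, which makes the NADH of glycolysis, read 144, 144, 153, 138 and 148 at 22 °C and 363, 307, 262, 311 and 251 in cold in DPP4+ cells, groups that lay apart, against 70.8 ± 10.8 and 77.4 ± 1.58 in DPP4- cells. Its rise was 2.06-fold (log2 difference 1.02, SE 0.10, limma adjusted p = 2.03e-08; 2.14-fold without replicate 5), in a gene often taken as a constant reference. Eno1, the common enolase, read 1967, 1843, 1596, 1769.5 and 1704 at 22 °C and 2846, 2446, 2473, 2705 and 1925 in cold in DPP4+ cells, where replicate 5 was the 1 cold library within the 22 °C range (log2 difference 0.47, SE 0.089, limma adjusted p = 0.000133; 1.47-fold without it). In DPP4- cells it averaged 556 ± 40.3 and 592 ± 65.7, so that DPP4+ cells held 3.19-fold as much at 22 °C.

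Pgk1, which makes the first ATP of this segment, rose in DPP4+ cells from 764 ± 38.7 to 948 ± 80.0 (log2 difference 0.31, SE 0.067, limma adjusted p = 0.000545), and the mutase Pgam1 from 346 ± 25.1 to 454 ± 42.8 (log2 difference 0.39, SE 0.087, limma adjusted p = 0.000694), both with groups apart. The neuronal enolase Eno2 fell. It read 279, 242, 234, 263 and 289 at 22 °C and 166, 193, 186, 176 and 266 in cold, the last of these, replicate 5, lying among the 22 °C values (log2 difference -0.42, SE 0.11, limma adjusted p = 0.00245). Eno2 was the 1 member of the segment called lower in DPP4+ cells, 261 against 469 ± 32.0 at 22 °C. Bpgm, which makes 2,3-bisphosphoglycerate, averaged 129.7 ± 6.20 and 100 ± 33.3 in DPP4+ cells, with replicate 5 of the cold group above every 22 °C library, and its fall (limma adjusted p = 0.0350) was lost without any 1 of 8 other DPP4+ libraries, to an adjusted p of up to 0.122. With all libraries this fall was also lost with quantile normalization (limma adjusted p = 0.11) and without the filter on low values (0.0532). Eno3, the muscle enolase, averaged 54.7 to 67.5 in the 4 groups and passed no test. Between the populations its call turned on the setting: at 22 °C it was called higher in DPP4+ cells with totals set equal (log2 difference 0.44, adjusted p = 0.00468) and lower with quantile normalization (-0.51, adjusted p = 0.00113). At 6 °C it was called lower with quantile normalization (-0.43), edgeR (-0.31), DESeq2 (-0.32) and without trended and robust variances (-0.28). Several of these genes have processed copies in the genome. Of the 50-base stretches of the longest transcript, 82.5% for Gapdh, 72.2% for Eno1, 68.0% for Pgk1, 41.5% for Pgam1 and 34.4% for Pkm also occur in transcripts of other genes in GENCODE vM21, and how reads that fit several genes were counted is not given in the sources used here, so their levels are uncertain. The figure is 0 for Slc2a1, Hk2, Slc16a1, Slc16a3, Pfkm and Pdk2.

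Lactate dehydrogenase A reduces pyruvate to lactate and so restores the NAD+ that Gapdh needs. Ldha read 3756, 3631, 3629, 3862 and 3630.2 in DPP4+ libraries at 22 °C and 6640.2, 5852, 5921, 6521 and 4740.2 at 6 °C. In DPP4- libraries it read 4779, 4930.1, 4799, 4444 and 4633 at 22 °C and 4716, 4879.6, 5479.7, 4452 and 5226 at 6 °C. The DPP4+ groups were apart; at 22 °C all DPP4+ libraries lay below the DPP4- libraries, and in cold the populations overlapped. The rise was 1.6-fold (log2 difference 0.67, SE 0.075, limma adjusted p = 9.93e-08; 1.68-fold without replicate 5) and differed from that in DPP4- cells by 0.60 (SE 0.11, limma adjusted p = 0.000115). The lower level in DPP4+ cells at 22 °C (log2 difference -0.35, SE 0.075, limma adjusted p = 0.000214) turned with totals set equal (0.26) and with quantile normalization (0.14). Ldhb, the subunit that favours lactate use, averaged 76.1 ± 13.0 and 59.8 ± 11.1 in DPP4+ cells and passed no cold test (95% interval -0.68 to -0.01 there).

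The 2 lactate transporters among the members had the 2 largest folds among the 15 members that rose in DPP4+ cells. Slc16a3 (MCT4), the exporter typical of glycolytic cells, read 80.8, 67.5, 76.7, 77.0 and 72.0 at 22 °C and 748, 605, 627, 691 and 397 in cold. In DPP4- libraries it read 16.2, 28.5, 31.5, 29.2 and 25.7 at 22 °C and 18.8, 30.0, 27.0, 26.4 and 9.88 at 6 °C. Every cold DPP4+ library lay several times above every other library, including replicate 5, the lowest. The log2 difference was 2.99 (SE 0.23, limma adjusted p = 4.59e-10), 8.93-fold without replicate 5, and it exceeded that in DPP4- cells by 3.27 (SE 0.33, limma adjusted p = 7.95e-08). Between the populations the ratio was 2.85 at 22 °C and 27.4 at 6 °C. Slc16a1 (MCT1), which carries lactate either way, read 1594, 1902, 2437, 2333 and 2379 in DPP4+ cells at 22 °C and 5659.6, 5492, 5352, 5664 and 5086 in cold. In DPP4- libraries it read 3010, 2319, 2582, 2832 and 2960.2 at 22 °C and 3187, 3211, 2694, 2995 and 2188 at 6 °C. The cold DPP4+ libraries lay above all 15 others (log2 difference 1.37, SE 0.11, limma adjusted p = 1e-09; difference from DPP4- cells 1.32, limma adjusted p = 9.58e-07). At 22 °C Slc16a1 was 1.29-fold lower in DPP4+ cells with overlapping groups, a direction that turned with totals set equal (log2 difference 0.24). Neither gene shares 50-base stretches with other genes.

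Windows before the starts of these 3 genes are shown because the genes rose together in cold DPP4+ cells. They are marked as above. The windows are chr7:46845554-46845803, chr3:104638414-104638663 and chr11:120948817-120949052, all on the plus strand of GRCm38.p6. The Slc16a3 window ends 14 bases before its RefSeq start, the rest being exon in GENCODE vM21, and the Ldha window stands before the more upstream of its 2 starts in that promoter table.
Ldha: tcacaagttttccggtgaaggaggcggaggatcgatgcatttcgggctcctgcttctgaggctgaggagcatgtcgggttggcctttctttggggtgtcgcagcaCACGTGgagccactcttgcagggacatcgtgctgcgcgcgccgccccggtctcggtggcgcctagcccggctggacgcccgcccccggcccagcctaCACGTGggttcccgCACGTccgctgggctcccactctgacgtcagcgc
Slc16a1: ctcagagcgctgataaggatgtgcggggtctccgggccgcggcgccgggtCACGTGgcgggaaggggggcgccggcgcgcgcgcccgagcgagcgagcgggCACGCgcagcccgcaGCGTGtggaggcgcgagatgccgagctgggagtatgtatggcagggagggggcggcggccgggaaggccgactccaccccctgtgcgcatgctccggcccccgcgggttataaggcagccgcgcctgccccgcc
Slc16a3: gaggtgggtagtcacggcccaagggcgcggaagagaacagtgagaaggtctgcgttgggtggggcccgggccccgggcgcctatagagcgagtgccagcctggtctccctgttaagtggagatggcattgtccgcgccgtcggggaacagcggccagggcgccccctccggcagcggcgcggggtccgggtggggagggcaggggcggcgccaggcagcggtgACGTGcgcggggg
The Ldha window holds 5 core matches and the palindrome CACGTG 2 times, which counts for 2 matches each time since it holds ACGTG on both strands. The Slc16a1 window holds 4 matches with 1 such palindrome and the shorter Slc16a3 window 1. Over the 250 bases before its start Slc16a3 has 2, the second lying in the 14 bases left out. CACGTG, the E-box that MYC and the glucose-responsive factors read, stood in 6.04% of all promoters searched, 8.47% of those of tested genes and 4 of the 34 members'. The Ldha window also holds the cAMP response element TGACGTCA, found in 1.6% of all promoters, in 2.77% of those of tested genes and in 1 of the 34.

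**Figure D3:**
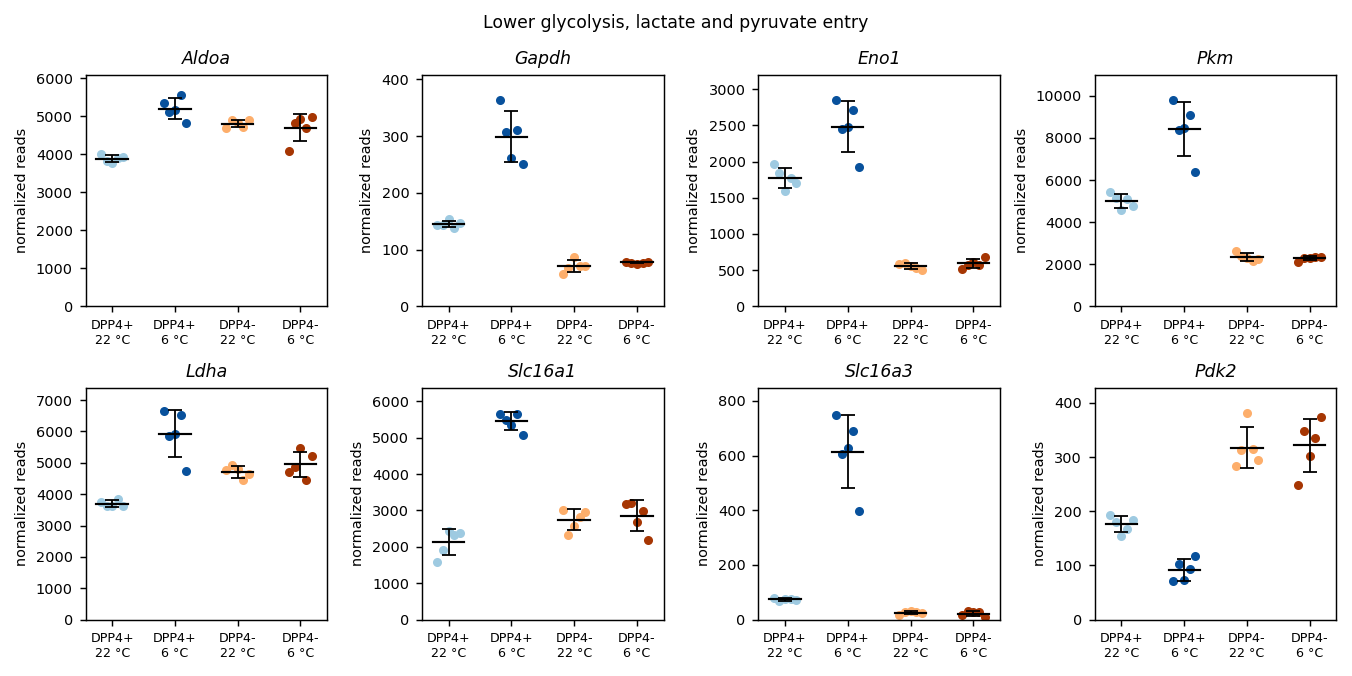
Normalized reads (y axis, from 0) of Aldoa, Gapdh, Eno1, Pkm, Ldha, Slc16a1, Slc16a3 and Pdk2 in each library, by group (x axis: DPP4+ and DPP4- cells at 22 and 6 °C); points are the 5 libraries, bars the mean and SD. Slc16a3 stands at 614 in cold DPP4+ cells and at 74.8 or less in the other groups, and the lowest cold DPP4+ point of Pkm, Eno1, Ldha and Slc16a3 is replicate 5.

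At the mitochondrial entry, PDH kinases switch PDH off by phosphorylating its E1 alpha subunit. None of the 4 rose with cold. Pdk2, the most widely expressed of them, read 193, 180.1, 155, 167 and 183 in DPP4+ cells at 22 °C and 70.7, 102, 73.8, 93.8 and 117 in cold. In DPP4- libraries it read 284, 312, 380.4, 315 and 294 at 22 °C and 248, 348, 302, 335 and 374 at 6 °C. The DPP4+ groups were apart and lay below all DPP4- libraries. The fall was 1.92-fold (log2 difference -0.96, SE 0.13, limma adjusted p = 1.17e-06) and differed from DPP4- cells by -0.97 (SE 0.18, limma adjusted p = 0.000180). Pdk3 fell in DPP4+ cells from 299 ± 35.3 to 236 ± 32.1 with overlapping groups (log2 difference -0.34, SE 0.11, limma adjusted p = 0.0103) and was higher there than in DPP4- cells (99.7 ± 6.94 at 22 °C). Pdk1, the textbook hypoxia target of the family, averaged 113 ± 10.6 and 93.1 ± 8.06 in DPP4+ cells and did not pass the test for cold (log2 difference -0.28, 95% interval -0.54 to -0.03, limma adjusted p = 0.0650). With edgeR, with DESeq2, with totals set equal, or fitted on the DPP4+ libraries alone, it passed downward. Pdk4, induced by fasting and fat oxidation, averaged 96.1 ± 13.6 and 71.7 ± 16.2 in DPP4+ and 86.0 ± 22.0 and 121 ± 52.3 in DPP4- cells. It passed no cold test with all 4 groups fitted, and passed downward when the DPP4+ libraries were fitted alone (log2 difference -0.43, adjusted p = 0.0216). The difference of its cold effects was -0.83 (limma adjusted p = 0.0681) with all libraries. With the same libraries it passed under DESeq2 (-0.90, adjusted p = 0.0298) and with totals set equal (-0.98, 0.0337). It also passed without replicate 5 of cold DPP4- cells (adjusted p = 0.00484), replicate 2 of cold DPP4+ cells (0.0428) or replicate 5 of DPP4- cells at 22 °C (0.0405). Of the PDH E1 subunits, Pdhb rose in DPP4+ cells from 580.5 ± 16.3 to 724 ± 21.5 (log2 difference 0.32, SE 0.063, limma adjusted p = 0.000230), while Pdha1 averaged 1781 ± 33.1 and 1747 ± 63.6 and did not pass (95% interval -0.16 to 0.10). The pyruvate carrier genes Mpc1 and Mpc2 averaged 99.4 to 109 and 284 to 342 in the 4 groups and passed no cold test, with intervals in DPP4+ cells of -0.28 to 0.25 and -0.16 to 0.21.

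The second comparison set DPP4+ against DPP4- cells at each temperature. The contrasts of the populations use the same libraries as those of cold, so they are not independent of them. DPP4+ cells held more RNA for 15 of the 34 members and less for 14 at 22 °C, and the same numbers at 6 °C, where 38.7% and 36.2% of all tested genes were higher and lower at 22 °C and 38.5% and 35.7% at 6 °C. With totals set equal the counts were 24 and 7 at 22 °C, where 69.7% and 15.6% of all tested genes were higher and lower, and 20 and 9 at 6 °C, where 63.1% and 18.8% were. Groups did not overlap for 14 of the higher and 12 of the lower members at 22 °C (33.4% and 31.4% of all tested genes) and for 12 and 10 at 6 °C (29.8% and 27.4%). Lower at both temperatures were the first steps, Slc2a1, Slc2a3 and Hk2, with Pfkp, Pfkfb3, Pfkfb4, Eno2 and Pdk2. Higher at both were Gpi1, Pfkl, Tpi1, Gapdh, Pgk1, Pgam1, Eno1, Pkm, Pdk1, Pdk3, Pdha1 and Slc16a3. The log2 differences at 22 °C ran from -2.39 for Slc2a3 to 2.25 for Pfkl, and at 6 °C from -1.81 for Pdk2 to 4.77 for Slc16a3. None of these genes turned direction under another scaling, although some calls were lost. That of Pdk1 was lost with quantile normalization at 22 °C (0.071, adjusted p = 0.603) and at 6 °C (0.16, 0.234), and that of Pdk2 at 22 °C with totals set equal (-0.23, 0.0846). By contrast, Pfkfb2 and Mpc2, called lower at both temperatures, turned with totals set equal at both temperatures. Aldoa, Ldha and Slc16a1 were called lower at 22 °C and higher at 6 °C in DPP4+ cells, and their lower calls at 22 °C turned upward with totals set equal. The calls at 6 °C of Pdk1 (adjusted p = 0.0310) and Aldoa (0.0234) were each lost without single libraries: Pdk1 without any 1 of 4 (to 0.105 without replicate 1 of cold DPP4- cells) and Aldoa without either of 2 (to 0.0993 without that same library). Per kb of merged exon, the highest levels at 22 °C were Ldha (1953 normalized reads per kb), Pkm (1926), Hk2 (1562) and Aldoa (1516) in DPP4+ cells, and Hk2 (5025), Ldha (2489), Aldoa (1876) and Pkm (904) in DPP4- cells. All 36 members together took 0.347% of reads in DPP4+ and 0.343% in DPP4- cells at 22 °C, and 0.451% and 0.349% in cold. Without Hk2 these shares were 0.268%, 0.176%, 0.373% and 0.191%. How reads that fit several genes were counted is not given. The ranking and the shares are therefore uncertain, since genes that share many 50-base stretches, such as Gapdh (82.5%), may be counted unlike Hk2 (0%).

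Ratios of 2 genes within a library do not depend on the scaling of the libraries. Over 15 ratios and 4 contrasts there were 60 tests, each an exact two-sided permutation test on log2 ratios, for which 5 against 5 libraries can give no p below 0.00794. Of these, 33 had an adjusted p under 0.05 (Benjamini-Hochberg over the 60 tests). Values are ratios of reads per kb. Slc16a3/Slc16a1 rose with cold from 0.0360 ± 0.00830 to 0.111 ± 0.0204 in DPP4+ cells (exact permutation p = 0.00794, adjusted 0.0176) and was 0.00972 ± 0.00286 and 0.00767 ± 0.00237 in DPP4- cells, so Slc16a1 remained the more abundant transporter per kb. Ldha/Ldhb rose from 34.3 ± 6.26 to 69.4 ± 10.1 in DPP4+ cells (exact permutation p = 0.00794, adjusted 0.0176), and Ldha/Pdha1, which sets the enzyme that makes lactate against a PDH subunit, from 3.12 ± 0.101 to 5.12 ± 0.735 with the same p. In DPP4- cells Ldha/Pdha1 was higher than in DPP4+ cells at both temperatures, 5.91 ± 0.592 and 6.59 ± 0.507. Pfkfb3/Pfkfb4 rose with cold in both populations, from 0.783 ± 0.0622 to 1.37 ± 0.174 in DPP4+ (exact permutation p = 0.00794, adjusted 0.0176) and from 0.993 ± 0.154 to 1.42 ± 0.256 in DPP4- cells (exact permutation p = 0.0238, adjusted 0.0433). Pdk2/Pdk1 fell in DPP4+ cells from 3.59 ± 0.384 to 2.30 ± 0.628 (exact permutation p = 0.00794, adjusted 0.0176).

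Some isoform ratios also set the populations apart at 22 °C, those given first each with no overlap and the smallest p the design allows. Hk2/Hk1 was 8.02 ± 1.52 in DPP4+ and 31.2 ± 4.19 in DPP4- cells. Pfkp/Pfkl was 1.99 ± 0.341 against 17.5 ± 2.24, Eno2/Eno1 0.134 ± 0.0127 against 0.774 ± 0.106, Pdk2/Pdk1 3.59 ± 0.384 against 8.41 ± 1.86 and Pdk3/Pdk1 6.48 ± 0.770 against 2.79 ± 0.389. Others did not separate them: Slc2a3/Slc2a1, Pdk4/Pdk1, Mpc2/Mpc1 and Ldha/Ldhb did not pass at 22 °C (smallest adjusted exact permutation p = 0.0680, Ldha/Ldhb). Pfkfb3/Pfkfb4 passed there (adjusted 0.0433) with overlapping groups. The Hk2/Hk1 and Pfkp/Pfkl ratios did not pass the test for cold in either population with all libraries. Without single libraries the log2 ratio at 6 °C relative to 22 °C had a p under 0.05 in 3 cases (exact permutation, not adjusted). These were Pfkp/Pfkl in DPP4+ cells without replicate 5 of the cold group (-0.54, exact p = 0.0317), Pfkp/Pfkl in DPP4- cells without replicate 1 of the cold group (-0.60, exact p = 0.0159) and Hk2/Hk1 in DPP4+ cells without replicate 5 of the 22 °C group (0.30, exact p = 0.0476).

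**Figure D4:**
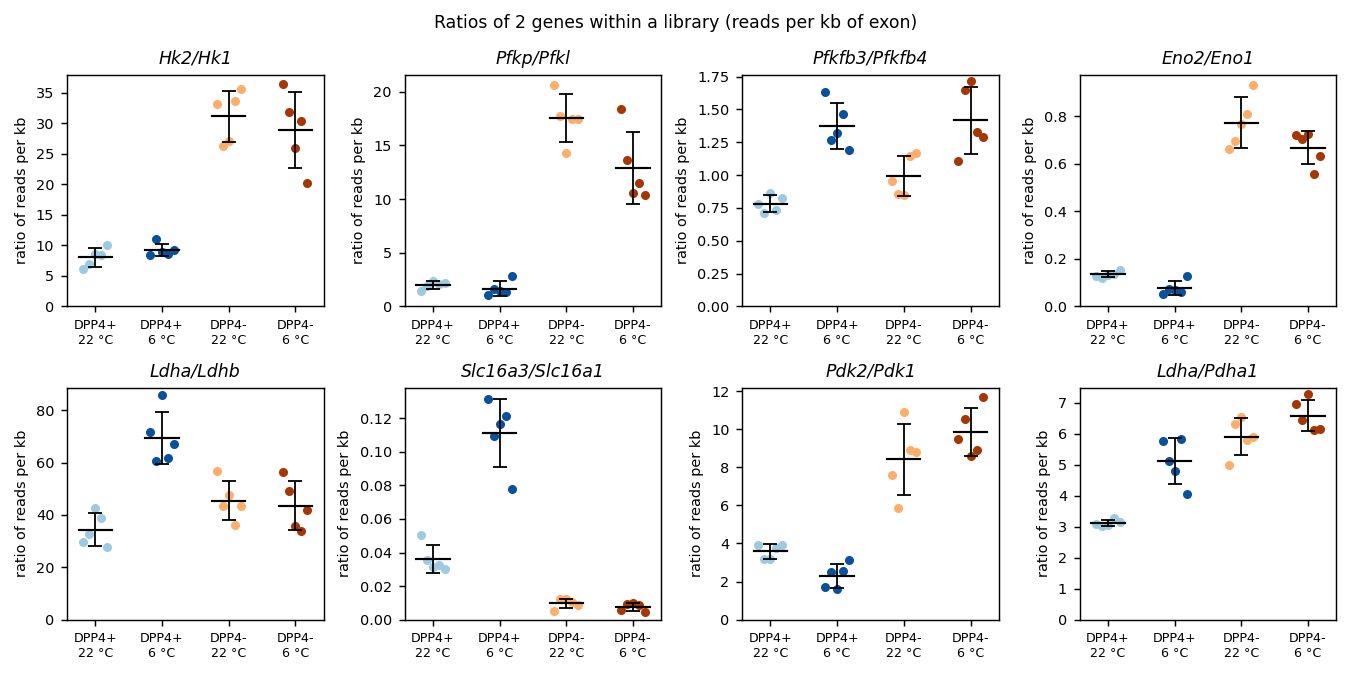
Ratios of 2 genes within each library (y axis, reads per kb of exon over reads per kb of exon, from 0) by group (x axis: DPP4+ and DPP4- cells at 22 and 6 °C) for Hk2/Hk1, Pfkp/Pfkl, Pfkfb3/Pfkfb4, Eno2/Eno1, Ldha/Ldhb, Slc16a3/Slc16a1, Pdk2/Pdk1 and Ldha/Pdha1; points are the 5 libraries, bars the mean and SD. The first 2 ratios separate the populations and overlap between temperatures, and the Ldha/Ldhb and Slc16a3/Slc16a1 ratios rise in cold DPP4+ cells to 69.4 and 0.111.

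Genes around the pathway were read from 11 lists of 118 genes, of which 94 were tested. In cold DPP4+ cells 35 of them rose and 21 fell, in DPP4- cells 3 rose and 5 fell, and the difference of the effects passed for 26 upward and 17 downward; the shares of all tested genes are those given above for the members. The pentose phosphate pathway, which branches off at glucose 6-phosphate and makes NADPH, had 4 of 8 tested genes higher and 1 lower in cold DPP4+ cells. Pgd, its second dehydrogenase step, rose from 2099 ± 75.0 to 7262 ± 1249.6 (log2 difference 1.77, SE 0.091, limma adjusted p = 1.9e-13) and Taldo1 from 629.7 to 1130.2, while H6pd of the endoplasmic reticulum fell from 1941 to 1109. Of 15 glycogen genes 3 rose and 4 fell: the glycogen-targeting phosphatase subunit Ppp1r3c rose from 75.3 ± 6.37 to 541 ± 107 and the branching enzyme Gbe1 from 154 to 349.5, while glycogenin, Gyg, fell from 482 ± 49.9 to 112 ± 6.98. Of the serine branch, which leaves glycolysis at 3-phosphoglycerate, 1 of 5 genes rose and 3 fell, with Phgdh, its first enzyme, at 379 ± 26.1 and 165 ± 18.4. In the NADH shuttles, the other route by which cytosolic NADH is used, 5 of 10 genes rose and 3 fell. Got1 rose from 407 ± 41.3 to 1096 ± 125 and Gpd2 from 189.9 ± 9.91 to 394 ± 38.3. Of 7 other sugar transporters 1 rose and 2 fell: Slc2a13, a myo-inositol carrier, rose from 396 ± 26.9 to 973 ± 131, while Slc2a9 fell from 43.1 ± 6.18 to 27.1 ± 9.49. Of 6 other genes of the PDH complex and its phosphatases 3 rose and 1 fell, with the phosphatase Pdp2, which switches PDH on, at 48.8 ± 5.18 and 92.2 ± 18.5. Of 2 other glycolytic isozymes 1 rose. None of the 4 tested gluconeogenesis genes rose, and Pck2, the mitochondrial form of its first committed enzyme, fell from 878 ± 63.8 to 332 ± 27.7.

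Of 6 other genes of monocarboxylate transport, 4 rose and 1 fell in cold DPP4+ cells, where 23.5% of all tested genes rose and 22.6% fell. Slc16a6, a ketone body carrier, rose from 35.0 ± 7.84 to 577 ± 117 (16.5-fold, limma adjusted p = 1.95e-14) and Emb, a chaperone of these transporters, from 2797 ± 295 to 3862 ± 815, while Slc16a7 (MCT2), a high-affinity importer, fell from 46.8 ± 9.95 to 30.8 ± 4.66. Of 18 regulators 9 rose and 2 fell. Txnip, which holds back glucose uptake and is known to follow intracellular glucose, fell from 2689 ± 269 to 509 ± 60.1 (log2 difference -2.40, SE 0.11, limma adjusted p = 2.62e-13). Egln3, a prolyl hydroxylase and a hypoxia target itself, rose from 9.54 ± 2.53 to 121 ± 19.5, and Tigar, which lowers fructose 2,6-bisphosphate, from 60.4 ± 6.93 to 131 ± 19.3. The Egln3 mean at 22 °C lay under the limit of 10 for testing, which the gene may have passed only through those cold libraries. Of 13 tested hypoxia-inducible targets outside glycolysis, 4 rose and 3 fell in cold DPP4+ cells, where 23.5% and 22.6% of all tested genes did. Among them Ddit4 rose from 154 ± 16.5 to 1889 ± 415 and Vegfa from 2081 ± 151 to 5376 ± 912, while Adm fell from 2976 ± 235 to 587 ± 107. In DPP4- cells the 3 neighbours that rose were Mlxipl, a glucose-sensing transcription factor (68.7 ± 22.3 to 135 ± 26.4), Vegfa (3293 ± 197 to 4322 ± 555) and Psph (62.4 ± 11.5 to 109 ± 18.7). Bsg, the chaperone that Slc16a1 and Slc16a3 need at the membrane, fell in DPP4- cells from 4201 ± 108 to 3631 ± 210 (log2 difference -0.21, SE 0.050, limma adjusted p = 0.0139) and rose in DPP4+ cells from 4156 ± 71.3 to 4634 ± 119, and Slc2a13, Pygb, Ndrg1 and P4ha2 were the others that fell in DPP4- cells. At 22 °C, DPP4+ cells held more RNA than DPP4- cells for 51 of the 94 tested neighbours and less for 29. The shares of all tested genes were 38.7% and 36.2%. Both directions occurred among the 18 regulators (7 higher, 9 lower) and the 13 hypoxia-inducible targets outside glycolysis (5 higher, 6 lower). Epas1 (HIF-2 alpha), one of those lower, averaged 276 ± 12.9 in DPP4+ and 3018 ± 372 in DPP4- cells. Also lower were its partner Arnt (1495 ± 61.2 and 3340.5 ± 155) and Myc (3125 ± 509.9 and 10746 ± 1025). So was Ndufa4l2, a hypoxia-induced mitochondrial protein (2.37 ± 1.45 and 178 ± 28.4).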

How the data were processed

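One deposited table was used, with 20 libraries as columns: normalized counts, a signal on the scale of reads that the authors made by dividing counts by a size factor per library. Per the submitters' processing notes, Trim Galore 0.4.1, HISAT2 2.0.1, featureCounts 1.4.6, DESeq2 1.6.3 and the GRCm38/mm10 build were used; the gene annotation, strand setting and treatment of reads that fit several genes are not given in the sources used here. In every column 100% of the deposited values were whole multiples of that column's step (tolerance 0.1 reads), which gave back whole reads, used for depth, edgeR 4.0.16 and DESeq2 1.42.0. Rows without a symbol numbered 958. Precision is limited by 5 libraries a group and 8.49 to 18.8 M reads (M for 1e+06) a library.

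Genes with a mean of at least 10 over the 20 libraries were tested with limma 3.58.1 in R 4.3.3 on log2(value + 1), with trended and robust variances, 4 group means, 16 residual degrees of freedom and Benjamini-Hochberg adjustment within each contrast (threshold 0.05, two-sided). Fold changes are ratios of group means; log2 differences understate those of low genes. Gene groups, promoters and alternatives were written into the plan with earlier results of these data known, as were the members themselves. All members are described. From the neighbouring lists (other sugar transporters, pentose phosphate pathway, glycogen, gluconeogenesis, serine branch, NADH shuttles, PDH complex and phosphatases, other monocarboxylate transport, regulators, hypoxia-inducible targets outside glycolysis, other glycolytic isozymes), names come from the 3 smallest p-values of a list in a contrast, apart from Slc2a13, Pygb, Ndrg1 and P4ha2, which complete a count. Exon lengths and shared stretches of 50 bases come from GENCODE vM21 (basic set), and promoters from RefSeq on GRCm38.p6, which had entries for 34 of the 36 members. Alternatives were scaling, tool, pseudocount, filter, variance model, samples fitted, each library left out, and the replicate number as a block.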

Additional observations from a re-analysis of the deposited data

Results flagged for a closer look

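In 8 of 136 sets of 5 libraries (34 tested members in 4 groups), 1 library stood apart from the other 4 by Dixon's criterion, which chance alone meets in about 1 set in 20. The high ones were Tpi1 in DPP4+ replicate 1 at 22 °C (1472 normalized reads, the next 1286), Eno2 in cold DPP4+ replicate 5 (266, the next 193), and, in DPP4- cells at 22 °C, Pdk1 in replicate 2 (123, the next 86.4), Pdha1 in replicate 1 (1435, the next 1180.5), Mpc1 in replicate 3 (129.7, the next 95.2) and Mpc2 in replicate 1 (413, the next 327). The low ones were Pkm in cold DPP4- replicate 1 (2112, the next 2315) and Pdhb in cold DPP4+ replicate 5 (687, the next 727).

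The cold effect differed between DPP4+ and DPP4- cells for 17 members by limma's test of the difference (adjusted p under 0.05), 12 upward and 5 downward, where 16.8% and 16.4% of all tested genes passed. The log2 effect in DPP4+ minus that in DPP4- cells was above 0 for 12. It was 3.27 for Slc16a3, 1.32 for Slc16a1, 0.88 for Gapdh, 0.78 for Pkm, 0.74 for Slc2a3, 0.73 for Slc2a1 and 0.60 for Ldha. The other 5 above 0 were Aldoa (0.46), Eno1 (0.39), Gpi1 (0.32), Pdhb (0.31) and Pgk1 (0.29), of which the last 4 were lost with totals set equal and with quantile normalization. It was below 0 for Pfkfb1 (-1.29), Pdk2 (-0.97), Pfkm (-0.66), Bpgm (-0.61) and Pdk3 (-0.49), and that of Bpgm was lost without any 1 of 15 libraries. With all libraries the Bpgm call was also lost with edgeR, DESeq2 and quantile normalization.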

How the results depend on the processing

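With totals set equal, DPP4+ cells were higher for 24 members and lower for 7 at 22 °C and lower for 9 at 6 °C, against 15, 14 and 14, while 69.7% of all tested genes were higher and 15.6% lower at 22 °C and 18.8% lower at 6 °C. The log2 differences that then turned upward at 22 °C were Pfkfb2 (0.13), Aldoa (0.31), Eno3 (0.44), Ldha (0.26), Slc16a1 (0.24), Pdhb (0.20) and Mpc2 (0.38), and at 6 °C Pfkm (0.16), Pfkfb2 (0.19), Ldhb (0.034), Pdhb (0.37) and Mpc2 (0.23). With quantile normalization Aldoa (0.19) and Ldha (0.14) turned at 22 °C. The difference of the cold effects called 8 members higher under both scalings, against 12, and lost Gpi1, Pgk1, Eno1 and Pdhb. Leaving out 1 library gave 1 to 2 members higher with cold in DPP4- cells, the second being Pfkl (0.52, adjusted p = 0.0368) without replicate 1 of the cold group. It gave 15 to 17 higher and 5 to 8 lower in DPP4+ cells, and 12 to 13 and 4 to 6 for the difference. The fall of Bpgm relative to DPP4- cells (adjusted p = 0.0449) was lost without any 1 of 15 libraries (up to 0.0962), and the lower Mpc2 of DPP4+ cells at 22 °C without either of 2 (up to 0.101). With all libraries, that fall of Bpgm was also lost with quantile normalization (adjusted p = 0.117), edgeR (0.0601) and DESeq2 (0.0616). So it was without the filter on low values (0.0682) and without trended and robust variances (0.0584). Same-numbered libraries of the populations correlated at 0.0166 to 0.156 in 10 pairs. Only 4 of these were over 0.1, and the labels do not say that a number marks a shared mouse or day, so the number was not taken to pair them, although 6 of the 10 correlated best with their own number, a hint in the data. With the replicate number as a block over all groups, cold in DPP4+ cells called 15 members higher and 6 lower, losing Hk1 (-0.18, adjusted p = 0.0621), and with a block within each temperature the difference called 11 and 6, losing Eno1 (adjusted p = 0.0522) and gaining Pdk4 (0.0178), and at 6 °C Aldoa (0.0527) was lost and Hk1 (0.0195) gained between the populations. The causes were not tested. Depth limits Pfkfb1, Slc2a4 and Aldoc, and 5 libraries a group limit small changes: members not called may differ by less than their intervals allow.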
